A study of Homo sapiens with 32 samples.

Results

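The change of the salinomycin (Sal) response between 24 and 72 h was measured by RNA-seq in MDA-MB-468, an established human cell line from a triple negative breast tumor, a tumor class defined by low or absent estrogen receptor, progesterone receptor and ERBB2. Of the 32 libraries of the series, 16 were chosen by treatment and time: 4 of control cells (PBS) at 24 h, 4 of cells given 0.5 μM Sal for 24 h, 4 of control cells at 72 h and 4 of cells given 0.5 μM Sal for 72 h. The quantity of interest was the log2 fold change of Sal against control at 72 h minus that at 24 h, called the change below, so that a gene drifting alike in both arms over the 2 days of further culture scores 0. The 4 libraries of a group were biological replicates per the study's methods, all of 1 cell line. In the labels, 1 library of each group carried no replicate number. Nothing in the labels says what set the replicates apart, so p-values measure the spread between these libraries. The remaining 16 libraries (15 μM dasatinib, Das, or both drugs) shared the filter on low counts, the scaling and the estimate of spread. They entered no contrast apart from a closing comparison with Das.

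Salinomycin is a polyether antibiotic that carries monovalent cations, potassium above all, across lipid membranes, and it is known for its toxicity to cancer stem cell-like populations. Cells answer disturbed ion balance and protein folding through stress programs: ATF4 and DDIT3 act in the integrated stress response, and the endoplasmic reticulum (ER) chaperones are raised by the unfolded protein response. Sterol and fatty acid genes are driven by the SREBP factors, and genes for DNA synthesis and mitosis follow the cell cycle, the former mostly through E2F and the latter through the DREAM and MuvB complexes.

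The 16 libraries held from 28721753 to 42769687 counts each, and 17227 genes passed the filter on low counts. EGFR and EPCAM, which mark this line, were at 4807 and 340.0 CPM (counts relative to the scaled library size) in control cells at 24 h, ESR1 at 5.42 CPM, and PGR had at most 2 counts in any library. Of 12 matched markers of fibroblasts, blood and endothelial cells, 8 had at most 9 counts in any library, and the 12 summed to between 30.1 and 96.3 CPM, most of it COL1A1 and CD14. The unnumbered Sal library of 24 h stood apart. Over the 1596 genes that were higher with Sal at 72 h, its median difference from the control mean of 24 h was 1.19 on the log2 scale, against 0.44, 0.49 and 0.50 in the numbered libraries. Over the 1635 genes that were lower at 72 h it was -0.88, against -0.30, -0.36 and -0.37. Set against the unnumbered control alone, the medians were 1.09 and -0.84, while the numbered Sal libraries set against the numbered controls gave 0.47 and -0.36. At 72 h the medians of the 4 Sal libraries over the higher genes were 2.13, 2.05, 2.07 and 2.08, close together. Over the lower genes they were -1.86, -2.25, -2.27 and -2.32, with the unnumbered library nearest to the controls. Both sets were chosen by their response to Sal at 72 h. The distance from the controls and the small spread at that time follow in part from that choice. Counts, and classes of named genes that turn on the unnumbered Sal library of 24 h, are given with and without it. The plot shows each library against its control.

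**Figure D1:**
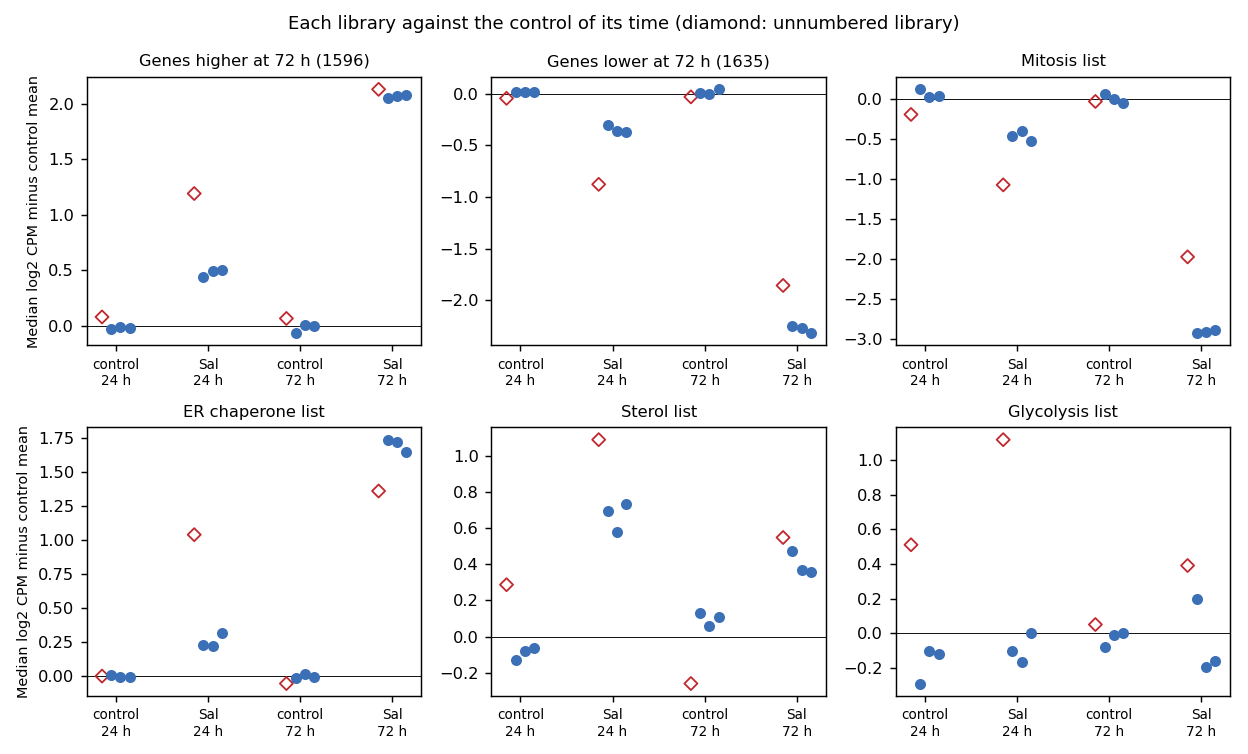
Each point is 1 library: the median, over the genes of a set, of its log2 CPM minus the mean of the 4 controls of the same time (vertical axis), by group (horizontal axis), with the unnumbered library as a red diamond. The unnumbered Sal library of 24 h lies beyond the 3 numbered ones, at 1.19 for the genes higher at 72 h and at 1.04 for the ER chaperone list. At 72 h all 4 Sal libraries are far from the controls in both, and the former genes were chosen by their 72 h values.

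The response to Sal grew between the time points in nearly all genes whose change passed the cutoffs. A gene could still pass at 24 h and not at 72 h without its change passing, as some of the sterol list below did. At 24 h, 141 genes (0.818% of those tested) passed an adjusted p below 0.01 with an absolute log2 fold change above 1.5, 139 higher and 2 lower. At 72 h, 3231 genes (18.8%) did, 1596 higher and 1635 lower. The change itself passed both cutoffs for 1368 genes (7.94%), of which 432 were higher (2.51%) and 936 lower (5.43%), by the quasi-likelihood test of edgeR, adjusted by Benjamini-Hochberg over all 17227 genes. For 1367 of the 1368 the response was larger in size at 72 h than at 24 h, and the exception, the long noncoding RNA LINC02908, had a log2 fold change of -2.73 at 24 h, which missed the test, and 2.37 at 72 h. The responses at 24 and 72 h had a Pearson correlation of 0.72 over all genes tested, which share the libraries and are not independent, and the same sign for 80.2% of them.

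Genes were sorted by the fits at each time. Late genes had a called change and passed an adjusted p below 0.01 at 72 h and not at 24 h, and growing genes passed it at both times with the same sign and more so at 72 h. Of the 1368 called genes, 1269 (92.8%) were late, 370 higher and 899 lower, and 97 were growing, 62 higher and 35 lower. A further 106 genes, all higher, were lasting: past both cutoffs at 24 and at 72 h without a called change. A single gene was reversed (past the adjusted p at both times with opposite signs). No gene was early (past the test at 24 h and not at 72 h) or fading (past it at both times and smaller at 72 h) under both cutoffs, and by adjusted p alone 8 genes were early and 1 was fading. The remaining called gene, FGFBP2, passed at neither time alone and had at most 35 counts in a library.

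Late genes that were higher had a median log2 fold change of 0.37 at 24 h and 2.51 at 72 h, and 271 of the 370 had the later sign at 24 h, against 80.2% of all genes tested. Those that were lower went from a median of -0.42 to -2.58, with 801 of 899 having the later sign at 24 h. The 24 h medians were, once the unnumbered Sal library of 24 h was left out, 0.18 and -0.29, and 231 and 714 had the later sign, against 71.6% of all genes tested. With all libraries the 24 h response had a median share of 13.5% of the 72 h response in the late higher genes and 16.1% in the late lower genes. The share was 40.4% in the growing genes that were higher and 67.6% in the lasting genes. The classes were set by the 24 h test, so the order of these shares follows in part from their definition. Control cells shifted in fewer genes than Sal cells, but how many depended on the libraries fitted. With all libraries, 49 genes (0.284%) passed both cutoffs between control at 24 and 72 h, against 2008 (11.7%) between Sal at 24 and 72 h. A refit without any unnumbered library tested 17043 genes. There, 123 rose and 37 fell in control past both cutoffs, against 1147 and 1401 in Sal. By adjusted p alone, 1196 rose and 684 fell in control, against 4715 and 5084 in Sal. In the fit of all libraries, 68 of the 1269 late genes passed the adjusted p in the controls over time (2.76% of all genes did). For 56 of the 57 of them that were lower with Sal the control level rose. A rise in control lowers the change by its definition, so this direction follows in part from the selection.

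Leaving out the unnumbered Sal library of 24 h moved these counts. Without it, 57 genes passed both cutoffs at 24 h, 55 higher and 2 lower, and the change was called for 692 higher and 1107 lower genes. Late genes numbered 1751, among them 1220 of the 1269, while 24 of the 97 growing and 33 of the 106 lasting genes kept their class. Of the other lasting genes, 28 became late, 12 growing and 33 unclassified.

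**Figure D2:**
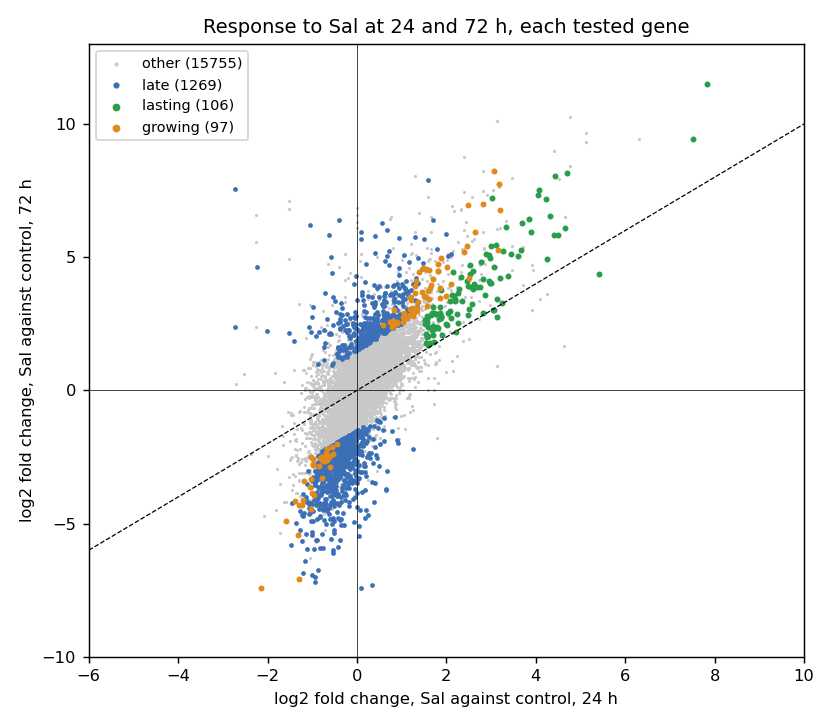
Each point is 1 tested gene, with the log2 fold change of Sal against control at 24 h on the horizontal axis and at 72 h on the vertical axis, colored by class. Most colored points lie near 0 at 24 h and far from it at 72 h, in the 1269 late genes, which by definition missed the 24 h test.

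The broadest late fall was in the genes of cell division. By adjusted p, all 32 mitosis genes were lower at 72 h (27.3% of all genes tested were) and none was at 24 h (0.830%). Their median log2 fold change went from -0.60 to -2.61, and the change was called for 25 of 32, all lower (5.43% of all genes tested were called lower), with 30 of 32 past the adjusted p alone (13.7% of all). The count at 24 h turned on a library of another group. Without replicate 3 of Das at 72 h, left out after seeing the data, 6 mitosis genes were lower at 24 h by adjusted p. Of all 17459 genes tested in that fit, 334 were. Without the unnumbered Sal library of 24 h, 0 mitosis genes were. In the controls the mitosis list moved by a median of -0.66 between 24 and 72 h. From bulk RNA, a smaller share of dividing cells and less of these RNAs in each cell cannot be told apart.

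KIF20A, a kinesin of the central spindle in cytokinesis, was at 268, 361, 341 and 346 CPM in control and 101, 214, 209.7 and 198 CPM in Sal at 24 h, each time with the unnumbered library first. At 72 h it was at 177, 189, 177 and 183 CPM in control and 26.7, 12.4, 9.96 and 8.68 CPM in Sal. The Sal values lay below the control values at both times without overlap, and the gap was the wider at 72 h. The change was -2.78 ± 0.49 (log2 ± SE, adjusted p = 7.42e-05). FOXM1, the transcription factor of late cell cycle genes, and PLK1, a mitotic kinase, changed by -2.64 and -2.46.

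DNA replication genes followed with smaller values. Of 37, 32 were lower by adjusted p at 72 h (27.3% of all genes tested) and none at 24 h (0.830%). The change was called for 8, all lower (5.43% of all), with 25 past the adjusted p alone (13.7% of all). RRM2, the regulated subunit of ribonucleotide reductase, was at 333, 475, 473 and 436 CPM in Sal at 24 h against 552, 723, 687 and 679 in control, and at 62.8, 25.7, 20.3 and 20.9 against 355, 413, 376 and 367 CPM at 72 h. Sal lay below control at both times without overlap, by far more at 72 h, and the change of RRM2 was the largest of the list, at -2.91 ± 0.47 (adjusted p = 2.59e-05). MCM10 and TYMS, a replication initiation factor and thymidylate synthase, changed by -2.28 and -2.24, and 47.9% of the exon bases of TYMS are shared with another gene. GINS2, a subunit of the replicative helicase, went from -0.32 at 24 h to -2.37 at 72 h.

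Of 22 regulators of G1 to S the change was called for 7, all lower (5.43% of all genes tested), and by adjusted p alone 11 were lower (13.7%) and 1 higher (8.21%). At 72 h itself 3 of the 22 were higher by adjusted p (27.2% of all genes tested). Of 16 homologous recombination genes the change was called for 8, all lower, and 11 were lower by adjusted p alone, led by RAD54L (-2.37), BRIP1 (-2.32) and EXO1 (-2.25). CCNA2, the cyclin of S phase and G2, was at 96.3, 128, 115 and 108 CPM in control and 20.2, 13, 12.7 and 11.9 CPM in Sal at 72 h. Its change was -2.34 ± 0.35 (adjusted p = 1.16e-05), ahead of E2F7 (-2.17) and CCNE2 (-2.12). In KIF20A, RRM2 and CCNA2 the unnumbered Sal library of 72 h was the highest of its group, and in each it still lay below every control.

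CCND1 and MYC, which the study names, had already fallen at 24 h. CCND1, the G1 cyclin, was at 264, 254, 252 and 263 CPM in control and 99.7, 139.9, 137 and 133 CPM in Sal at 24 h, and at 287, 288, 278 and 275 CPM in control and 53.4, 50.1, 47.2 and 46.1 CPM in Sal at 72 h. MYC, a transcription factor of growth genes, was at 149, 128, 125 and 132 CPM in control and 57.4, 83.6, 74.1 and 81.7 CPM in Sal at 24 h and at 114, 152, 158 and 172 CPM in control and 20.2, 22.5, 20.7 and 19.7 CPM in Sal at 72 h. No Sal library overlapped a control of its time for either gene, and the fall deepened in each. Both remained growing when the unnumbered Sal library of 24 h was left out (24 h adjusted p = 0.00135 for CCND1 and 0.00454 for MYC). MYC went from -0.85 ± 0.15 at 24 h (adjusted p = 0.000453) to -2.84 ± 0.16 at 72 h, a change of -2.0 ± 0.22 (adjusted p = 1.44e-07). CCND1 went from -1.02 to -2.52, a change of -1.50 ± 0.23 (adjusted p = 1.72e-05).

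The promoters of these lists differed in their short motifs. In the RefSeq promoters, from 250 bases before to 50 after each gene's start, an E2F word (TTTGGCGC, TTTCCCGC or TTTCGCGC, either strand) was found in 56.2% of 32 replication genes, against 2.79% of all 27305 promoters and 4.29% of those of genes tested. The CHR element word TTTGAA was found in 69.2% of 26 mitosis genes, against 15.4% and 9.83%, and the word CCAAT in 73.1% of them, against 35.7% and 36.2%. A match is a description of letters and not a binding site. Over all 610 late lower genes with a promoter the shares were 6.89% for E2F and 18.4% for CHR, and over 231 late higher genes 3.03% and 15.2%. CDK1, the mitotic kinase, PLK1 and GINS2 are shown for these words, and HSPA5, the ER chaperone that rose, for its repeated CCAAT words. Capitals mark the matched words on either strand, and coordinates are of GRCh38.p14, the build of the promoter table, whereas the counts were made on GRCh37. In CDK1 a CHR word begins at -161, CCAAT at -150 and an E2F word at 20 from the start. In PLK1 CCAAT begins at -73 and CHR at -29, and in GINS2 CCAAT at -158 and an E2F word at -31. In HSPA5 the 5 CCAAT words begin at -216, -188, -99, -66 and 35.
CDK1 promoter, GRCh38.p14, chr10:60778081-60778380, + strand: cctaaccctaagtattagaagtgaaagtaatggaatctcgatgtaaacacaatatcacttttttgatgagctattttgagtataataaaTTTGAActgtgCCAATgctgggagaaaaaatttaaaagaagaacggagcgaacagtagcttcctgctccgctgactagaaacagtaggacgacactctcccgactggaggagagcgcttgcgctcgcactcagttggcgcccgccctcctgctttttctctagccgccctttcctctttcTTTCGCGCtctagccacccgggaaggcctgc
PLK1 promoter, GRCh38.p14, chr16:23678639-23678938, + strand: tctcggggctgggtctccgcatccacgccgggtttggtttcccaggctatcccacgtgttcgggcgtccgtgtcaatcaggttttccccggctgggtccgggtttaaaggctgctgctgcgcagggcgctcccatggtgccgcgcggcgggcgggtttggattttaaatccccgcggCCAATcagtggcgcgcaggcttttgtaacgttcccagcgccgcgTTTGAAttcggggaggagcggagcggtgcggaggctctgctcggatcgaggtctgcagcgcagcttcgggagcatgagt
GINS2 promoter, GRCh38.p14, chr16:85688905-85689204, - strand: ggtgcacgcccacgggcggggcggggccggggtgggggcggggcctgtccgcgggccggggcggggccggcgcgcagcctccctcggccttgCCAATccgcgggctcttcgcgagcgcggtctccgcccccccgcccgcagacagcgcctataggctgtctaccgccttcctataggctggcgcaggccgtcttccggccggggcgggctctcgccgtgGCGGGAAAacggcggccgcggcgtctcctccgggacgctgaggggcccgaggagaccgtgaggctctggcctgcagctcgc
HSPA5 promoter, GRCh38.p14, chr9:125241294-125241593, - strand: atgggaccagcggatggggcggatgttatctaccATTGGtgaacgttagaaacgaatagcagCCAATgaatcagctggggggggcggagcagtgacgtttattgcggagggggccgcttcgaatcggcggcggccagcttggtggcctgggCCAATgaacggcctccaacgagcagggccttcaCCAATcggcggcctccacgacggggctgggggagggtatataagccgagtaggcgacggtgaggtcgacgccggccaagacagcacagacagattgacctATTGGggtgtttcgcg

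Beyond the cell cycle, the 6 late lower genes with the largest changes among protein-coding genes of at least 5 CPM in a group were ITGA9, FAIM2, PI3, FXYD6, CNIH2 and MUC5B. ITGA9, an integrin alpha chain, was at 4.30, 5.54, 5.73 and 5.49 CPM in control and 0.897, 2.95, 3.74 and 3.46 CPM in Sal at 24 h. At 72 h the controls were at 9.83, 10.2, 9.31 and 10.7 CPM and the Sal libraries at 0.0254, 0.0350, 0 and 0.213 CPM. All Sal libraries lay below their controls at both times, and near 0 at 72 h alone, with a change of -6.28 ± 0.74 (adjusted p = 4e-07). CNIH2, an auxiliary protein of AMPA receptors, was at 13.4, 18.5, 16.7 and 17.7 CPM in Sal at 24 h and 0.915, 0.315, 0.232 and 0.213 CPM at 72 h, against 27.8, 25.7, 26.8 and 28.8 CPM in the controls of 72 h. The changes of FAIM2, PI3, FXYD6 and MUC5B were -5.88, -5.48, -5.46 and -5.13.

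Of 16 Wnt genes the change was called for 4, all lower (5.43% of all genes tested), the largest in WNT10B, a ligand (-3.88), TCF7, a transcription factor of the pathway (-3.12), and SFRP1, a secreted antagonist (-2.71). SFRP1 was at 234, 353, 337 and 302 CPM in control and 36.1, 37, 39.5 and 37.3 CPM in Sal at 72 h. At 24 h, 3 Sal libraries were at 161, 163 and 156 CPM, close to 139, 186, 181 and 183 CPM in the controls, and the unnumbered one was at 71.1 CPM.

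Of 17 ERK targets and feedback genes, 6 were called lower (5.43% of all) and 1 higher (2.51% of all). DUSP6, the ERK phosphatase that serves as a readout of the pathway, was at 1.37, 1.58, 1.69 and 1.42 CPM in Sal at 72 h against 14.8, 20.8, 21.7 and 19.9 CPM in control, far below it, with a change of -2.82 ± 0.42 (adjusted p = 1.09e-05). ETV1, a transcription factor, changed by -2.64. EREG, an EGFR ligand, went the other way, from 0.168, 0.501, 0.312 and 0.340 CPM in Sal at 24 h to 1.65, 1.93, 3.29 and 3.15 CPM at 72 h, where the controls were at 0.296, 0.201, 0.238 and 0.334 CPM (change 2.81 ± 0.56, adjusted p = 0.000295).

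Of 30 interferon-stimulated and MHC class I genes, 4 were called lower (5.43% of all) and 1 higher (2.51%), and by adjusted p alone 10 were lower (13.7%) and 1 higher (8.21%). OAS2, an antiviral enzyme, was at 9.89, 10.4, 10.6 and 9.68 CPM in control and 0.991, 0.560, 0.631 and 0.425 CPM in Sal at 72 h (change -3.51 ± 0.40, adjusted p = 2.47e-07), and XAF1 and OAS3 changed by -2.59 and -1.68. STAT2, a transcription factor of the interferon response, was the gene that was higher, at 0.89 at 24 h and 2.51 at 72 h. It counted as late when the unnumbered Sal library of 24 h was left out (24 h adjusted p = 0.0343). Of 14 ion pump and osmotic genes 3 were called lower (5.43% of all): SLC12A2, the sodium-potassium-chloride cotransporter (-1.96), SGK1, a kinase of sodium transport (-1.59), and FXYD3, a regulator of the sodium pump (-1.51). SLC12A2 was at 181, 292, 317 and 273 CPM in Sal at 24 h against 397, 357, 342 and 339 in control, and at 79.2, 52.6, 61.9 and 61.3 against 384, 345, 318 and 296 CPM at 72 h, apart from the controls at both times. KRT5, a basal keratin of this line, changed by -2.79 and was at 80.7, 38.1, 29.3 and 28 CPM in Sal at 72 h against 502, 511, 538 and 573 CPM in control.

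**Figure D3:**
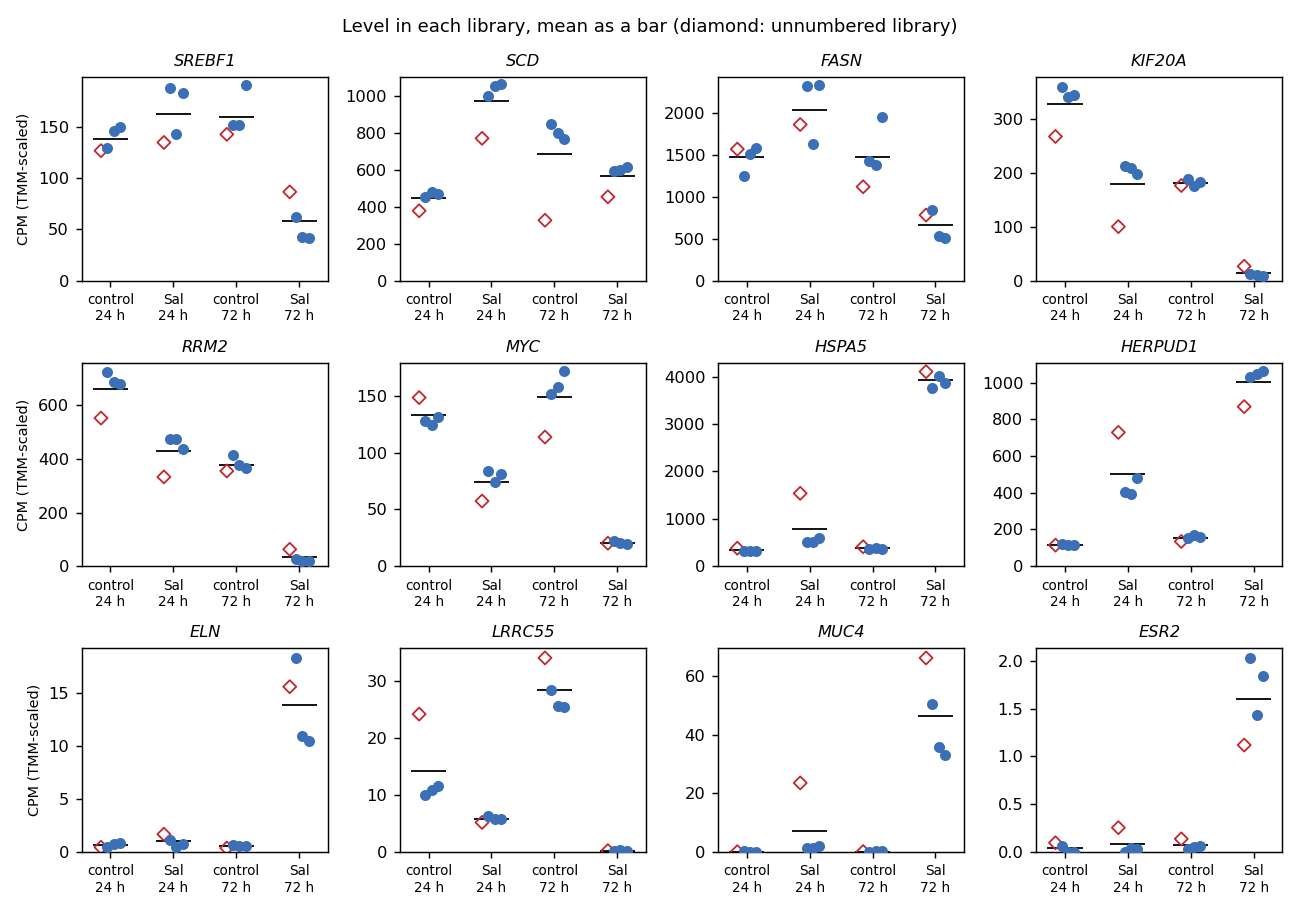
CPM on a linear axis from 0 (vertical) for 12 genes in the 16 libraries, by group (horizontal), with 1 point per library, the unnumbered library as an open red diamond and the group mean as a bar. SCD is above its controls at 24 h, SREBF1 and FASN are below theirs at 72 h, KIF20A, RRM2 and MYC are lowest with Sal at 72 h, and ELN and ESR2 are high only in the Sal libraries of 72 h.

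Of the late genes that were higher, the 6 with the largest changes among protein-coding genes of at least 5 CPM in a group were ATG9B, CUZD1, AGT, ELN, MSLNL and SYNC. ATG9B, a lipid scramblase of the autophagy machinery, was at 10.8, 11.3, 12.6 and 9.64 CPM in Sal at 72 h. The controls of that time had at most 3 counts each, so the level was at least 129-fold higher, taken against 3 counts per library. At 24 h the 3 numbered Sal libraries were at 0, 0.104 and 0.170 CPM and the unnumbered one at 1.12.

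AGT, angiotensinogen, was at 0.392, 0.383, 0.416 and 0.425 CPM in Sal at 24 h, against 0.165, 0.363, 0.357 and 0.157 CPM in control, and at 12.4, 13, 11.2 and 10.9 against 0.296, 0.502, 0.370 and 0.473 CPM at 72 h. Its groups differed little at 24 h and lay far apart at 72 h (change 4.21 ± 0.68, adjusted p = 2.53e-05). ELN, elastin, was at 1.65, 1.06, 0.451 and 0.709 CPM in Sal at 24 h and 15.6, 18.3, 10.9 and 10.5 CPM at 72 h, where the controls were at 0.350, 0.603, 0.556 and 0.584 CPM (change 3.99 ± 0.42, adjusted p = 7.73e-08). CUZD1 changed by 5.34 and SYNC by 3.26, but 79.9% and 58% of their exon bases are shared with another gene, so reads of the partners could not be told apart. The change of MSLNL (3.30, adjusted p = 0.00704) was called in only 6 of 16 fits with 1 library removed, and its adjusted p was 0.0677 without the unnumbered control of 24 h. Among 9 YAP targets, ANKRD1 alone was called, at -0.45 at 24 h and 1.38 at 72 h (2.51% of all genes tested were called higher).

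Growing genes had a response by 24 h that was larger at 72 h. HSPA5, the main ER chaperone of the HSP70 family, was at 379, 323, 329 and 328 CPM in control and 1536, 508, 504 and 596 CPM in Sal at 24 h. At 72 h it was at 409.5, 369.7, 386 and 353 CPM in control and 4103, 3752, 4012 and 3875 CPM in Sal. Every Sal library lay above every control of its time, with the unnumbered one far above the rest at 24 h. The response was 1.21 ± 0.30 at 24 h (adjusted p = 0.00789) and 3.37 at 72 h, a change of 2.16 ± 0.42 (adjusted p = 0.00023). Without the unnumbered Sal library of 24 h, the 24 h response was 0.66 (adjusted p = 0.135), so that HSPA5 counted as late, with a change of 2.72.

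Most of the ER list rose by 72 h. Of 21 chaperone and unfolded protein response genes, 5 were higher by adjusted p at 24 h (3.88% of all genes tested) and 19 at 72 h (27.2%), and the median went from 0.48 to 1.68. The change was called for HSPA5 alone (2.51% of all were called higher). By adjusted p alone 11 were higher (8.21% of all) and 1, XBP1, was lower (-1.0). HSP90B1 and P4HB, an ER chaperone and a disulfide isomerase chosen after their values were seen, changed by 1.47 and 1.37. Without the unnumbered Sal library of 24 h the 24 h median was 0.24 and that of the change 1.25. In that fit 8 genes of the list were called higher, as were 692 of the 17474 genes tested. In the RefSeq promoters 90% of 20 genes of the ER list held a CCAAT word, against 35.7% of all promoters and 36.2% of those of genes tested.

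FTL, the ferritin light chain, was the called gene among 9 of iron handling (2.51% of all genes tested were called higher). It was at 147, 144, 137 and 143 CPM in control and 592, 246, 245 and 279.7 CPM in Sal at 24 h. At 72 h it was at 149, 206, 215 and 198 CPM in control and 1396, 1387, 1413 and 1459.6 CPM in Sal. The Sal values lay above the controls at both times and within a narrow range at 72 h (change 1.62 ± 0.38, adjusted p = 0.00136). UNC13A, a synaptic vesicle priming protein, was at 10.3, 5.63, 4.54 and 6.44 CPM in Sal at 24 h and 38.4, 138, 133 and 149 CPM at 72 h, against 0.964, 1.33, 1.32 and 1.19 CPM in the controls of 24 h and 0.808, 0.871, 0.952 and 1.03 CPM in those of 72 h. SCN3B, a sodium channel beta subunit, GRIN2C, an NMDA receptor subunit, and MAPK15, an atypical MAP kinase, changed by 5.19, 4.54 and 3.57. The call of MAPK15 held in 14 of 16 fits with 1 library removed, and its adjusted p was 0.0353 without the unnumbered control of 24 h. When the unnumbered Sal library of 24 h was left out, MAPK15 remained growing, whereas FTL, UNC13A, SCN3B and GRIN2C counted as late, with 24 h adjusted p of 0.036, 0.0109, 0.0149 and 0.0427.

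LRRC55, an auxiliary subunit of large-conductance potassium channels, had the largest change of the growing genes that were lower, among protein-coding genes of at least 5 CPM in a group. It was at 24.2, 9.93, 10.9 and 11.5 CPM in control and 5.16, 6.25, 5.72 and 5.76 CPM in Sal at 24 h, then at 34.1, 28.5, 25.7 and 25.5 CPM in control and 0.203, 0.140, 0.266 and 0.213 CPM in Sal at 72 h. The Sal values were below the controls at 24 h and near 0 at 72 h, a change of -5.78 ± 0.40 (adjusted p = 7.48e-11). VSNL1, TSPAN2 and STARD8 changed by -3.43, -2.89 and -2.86, and without the unnumbered Sal library of 24 h all 3 counted as late, while LRRC55 remained growing.

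The 106 lasting genes were past both cutoffs at 24 h and at 72 h, and 101 of them still had a larger value at 72 h. MUC4, a membrane mucin, had at most 3 counts in any control. It was at 23.5, 1.27, 1.14 and 1.93 CPM in Sal at 24 h and 66.2, 50.4, 35.8 and 33.1 CPM at 72 h, at least 82.5-fold and at least 539-fold higher, against 3 counts per library. The unnumbered library made most of the mean at 24 h, and without it the adjusted p was 0.0127. HTRA3, a secreted serine protease, had no count in the 8 controls, and at 24 h its 2.86 CPM in the unnumbered Sal library stood against 0.0589, 0.173 and 0.170 CPM in the numbered ones. At 72 h it was at 10.5, 11.1, 10.6 and 10.8 CPM, at least 125-fold higher. TMEM151A, NLRC3, RAB39B and PEAR1 completed the 6 with the largest responses, ranked by the smaller of the 2 times among protein-coding genes of at least 5 CPM in a group. None of these 6 was lasting once the unnumbered Sal library of 24 h was left out: RAB39B and PEAR1 counted as late, and the 24 h adjusted p was 0.0242 for TMEM151A, 0.051 for NLRC3 and 0.131 for HTRA3.

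Among stress genes, HERPUD1 and DDIT3 were lasting. HERPUD1, an ER-associated degradation protein chosen after its values were seen, was at 115, 120.1, 117 and 114 CPM in control and 729.5, 405, 396 and 481 CPM in Sal at 24 h, and at 135, 153, 169 and 158 CPM in control and 870.0, 1034, 1049.8 and 1062 CPM in Sal at 72 h. All Sal libraries were far above all controls at both times. The difference between the times was 0.60 ± 0.33 (95% interval -0.09 to 1.28, adjusted p = 0.173), and HERPUD1 remained lasting without the unnumbered Sal library of 24 h. DDIT3, the stress transcription factor CHOP, also chosen after its values were seen, was at 71.4, 17.6, 19.5 and 23.8 CPM in Sal at 24 h and 186, 153, 164 and 163 CPM at 72 h, against 13.7, 7.02, 8.42 and 6.71 CPM in the controls of 24 h and 17.3, 9.71, 11.6 and 10.1 CPM in those of 72 h. Its difference between the times was 1.89 ± 0.59 (adjusted p = 0.0144), and without that library it was 2.60 (adjusted p = 0.00034), which made DDIT3 late.

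**Figure D4:**
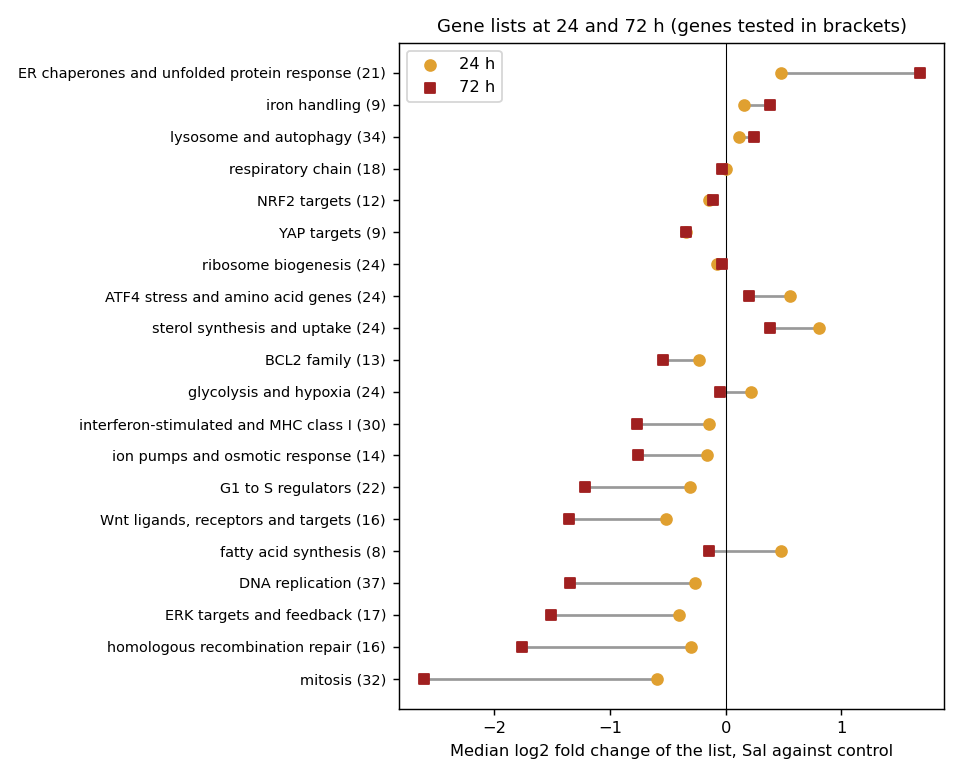
Median log2 fold change of Sal against control over the members of each gene list (horizontal axis) at 24 h (circles) and at 72 h (squares), with the number of genes tested in brackets. Mitosis goes from -0.60 to -2.61 and the ER list from 0.48 to 1.68, while the sterol list goes from 0.81 to 0.38, the other way.

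The sterol list was mostly higher at 24 h and less so at 72 h. Of 24 genes of sterol synthesis and uptake, 19 were higher by adjusted p at 24 h (3.88% of all genes tested) and none lower, and at 72 h 11 were higher (27.2%) and 3 lower (27.3%). The median went from 0.81 to 0.38, with 1 called change (5.43% of all were called lower) and 5 lower by adjusted p alone (13.7%). With the numbered libraries alone 13 were lower by adjusted p, as were 3823 of the 17043 genes tested in that fit. Without the unnumbered Sal library of 24 h, 12 were higher at 24 h by adjusted p, as were 316 of the 17474 genes tested. The median of the change of the list was then -0.22. HMGCS1, which makes HMG-CoA, was at 339, 191, 183 and 180.4 CPM in control and 660.4, 485, 542 and 518 CPM in Sal at 24 h, and at 126, 183, 160.2 and 147 CPM in control and 284, 285, 310.0 and 308 CPM in Sal at 72 h. It stayed above its controls at both times, and the difference of -0.36 (95% interval -0.84 to 0.12, adjusted p = 0.246) was not called. SQLE, the squalene epoxidase, had 1.10 and 1.55, while FDFT1, the squalene synthase, had 0.61 and -0.13.

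Of 8 fatty acid genes, 3 were higher (27.2% of all genes tested) and 3 lower (27.3%) by adjusted p at 72 h. The change was called for FASN and SREBF1, both lower (5.43% of all), and by adjusted p alone 4 were lower (13.7%) and 1 higher (8.21%). FASN, the fatty acid synthase, was at 1568, 1243, 1508 and 1576 CPM in control and 1861, 2324, 1631 and 2335 CPM in Sal at 24 h, and at 1119, 1423, 1378 and 1954 CPM in control and 781, 838, 529.9 and 508 CPM in Sal at 72 h. The groups did not overlap at either time, but the 24 h response of 0.47 missed the test (adjusted p = 0.0929), which made FASN late with a change of -1.61 ± 0.25 (adjusted p = 1.88e-05). SREBF1, the SREBP of fatty acid synthesis, was at 135, 187, 143 and 183 CPM in Sal at 24 h and 86.4, 62.2, 42.5 and 41.4 CPM at 72 h, against 142, 152, 152 and 191 CPM in control (change -1.69 ± 0.25, adjusted p = 1.08e-05).

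SCD and ACSS2, both chosen after their values were seen, came closest to an early and a further reversed gene. SCD, the stearoyl-CoA desaturase, was at 378, 455, 481 and 468 CPM in control and 771, 1002, 1055 and 1065 CPM in Sal at 24 h, and at 327, 849, 798 and 765 CPM in control and 454, 592, 599 and 616 CPM in Sal at 72 h. Sal was the higher at 24 h without overlap, and at 72 h the groups overlapped through the unnumbered control. The response was 1.13 at 24 h (adjusted p = 0.000371) and -0.28 at 72 h (adjusted p = 0.227), and the change of -1.40 ± 0.28 was under the cutoff of 1.5. Without the unnumbered Sal library of 24 h it was -1.50 and SCD counted as the single early gene, and without the unnumbered control of 72 h the 72 h response was -0.54 (adjusted p = 0.0054) and the change -1.65, which made SCD a reversed gene. ACSS2, which makes acetyl-CoA from acetate, went from 0.51 (adjusted p = 0.000328) to -0.44 (adjusted p = 9.91e-05), a change of -0.96.

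**Figure D5:**
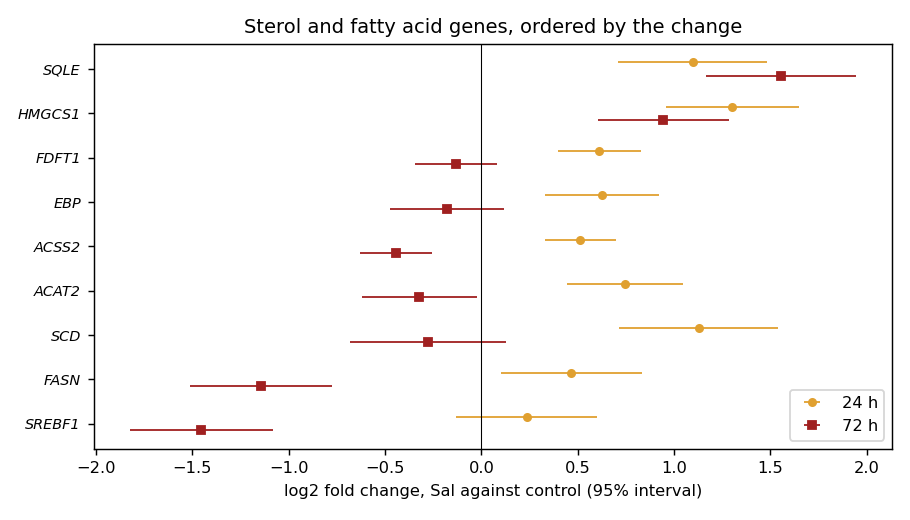
Log2 fold change of Sal against control with 95% intervals (horizontal axis) at 24 h and at 72 h for the 9 sterol, fatty acid and acetyl-CoA genes named here (vertical axis). All 24 h values lie to the right of 0, and FASN and SREBF1 lie farthest to the left at 72 h.

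By adjusted p alone, the other genes with a called change that lost an early response were few, and all were chosen after their values were seen. KIF5C, a neuronal kinesin, had -0.79 at 24 h and 0.41 at 72 h, and MORF4L2, a chromatin protein, 0.68 and 0.04. The 24 h response of KIF5C passed in only 4 of 16 fits with 1 library removed, with an adjusted p of 0.0564 without the unnumbered Sal library of 24 h and from 0.0102 to 0.0273 without any one control of 24 h. FJX1 and IRX2 had -0.66 and -0.52 at 24 h and -0.09 and 0.02 at 72 h, and their changes passed in only 3 and 9 of the 16 fits. The sterol genes ACAT2, EBP and FDFT1 were among the early ones too, with changes of -1.07, -0.80 and -0.74. With the unnumbered Sal library of 24 h left out, the 24 h adjusted p was 0.0124 for ACAT2 and 0.0538 for EBP, and for EBP it was 0.0237, 0.0221 and 0.0204 without control replicate 1, 2 and 3 of 24 h. BTN3A3, a butyrophilin, was the fading gene, at 0.86 and 0.38, and its change passed in 12 of the 16 fits.

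Other lists had few called changes. None was called among 24 ATF4 stress and amino acid genes, 34 lysosome and autophagy genes, 24 glycolysis and hypoxia genes, 18 respiratory chain genes, 12 NRF2 targets and 13 BCL2 family genes (7.94% of all genes tested were called). When the unnumbered Sal library of 24 h was left out, 3 ATF4 genes and 1 lysosome gene were called higher. Of all 17474 genes tested in that fit, 692 were. By adjusted p alone, 2 ATF4 genes were higher (8.21% of all) and 4 lower (13.7%), with a median going from 0.56 to 0.20, and ATF4 itself had 0.24 and 0.04. In the lysosome list 5 were higher and 3 lower, against the same shares of all genes, SQSTM1, an autophagy receptor, among the higher at 1.09. LDHA, lactate dehydrogenase A, was the glycolysis gene past the adjusted p, at -1.06 (13.7% of all genes tested were lower). The median change of that list was -0.40, 0.13 without the unnumbered Sal library of 24 h, and -0.24 with the numbered libraries alone. Of 24 ribosome biogenesis genes, UTP20 alone was called (-2.24), where 5.43% of all genes tested were called lower. The median change over all genes tested was close to 0.

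ESR2, the estrogen receptor beta gene, which the study names, was low throughout and missed the test of the change. Its counts were 4, 2, 0 and 0 in control and 9, 0, 1 and 1 in Sal at 24 h, and 5, 1, 2 and 2 in control and 44, 58, 43 and 52 in Sal at 72 h. The Sal libraries of 72 h lay above all others and the groups overlapped at 24 h. The response was 4.43 ± 0.61 at 72 h (adjusted p = 3.2e-07) and 0.92 at 24 h (adjusted p = 0.584), and the change was 3.51 ± 1.27 (95% interval 0.90 to 6.11, adjusted p = 0.0329). Without the unnumbered Sal library of 24 h, which held 9 of the 11 counts of its group, the change was 5.32 (adjusted p = 0.002). Of the 16 fits with 1 library removed, it passed in that 1 only. The adjusted p was 0.31 without the unnumbered control of 24 h.

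The change over time was also set against that with Das, a tyrosine kinase inhibitor given at 15 μM. Both changes use the same controls, which cancel in their difference. The change of the Das response passed both cutoffs for 16 genes (0.0929%), and the difference between the changes of Sal and Das did so for 825 (4.79%), 238 higher (1.38%) and 587 lower (3.41%) with Sal. Replicate 3 of Das at 72 h lay close to its controls, with a median of 0.24 over the genes higher with Sal at 72 h, against 1.06, 1.27 and 1.18 in the other Das libraries of 72 h. Without it the counts were 64 and 562. The change over time was lower with Sal than with Das for all 32 mitosis genes by adjusted p (8.23% of all genes tested), with a median difference of -2.26. Without that library it was so for 30, with a median of -1.90, and for 1049 of all 17459 genes tested. At 24 h the mitosis medians of the Das libraries against control were -0.86, -1.27, -1.22 and -1.25, and those of the Sal libraries -1.07, -0.46, -0.39 and -0.53. At 72 h they were -0.83, -1.59, -1.35 and 0.03 with Das and -1.97, -2.93, -2.91 and -2.89 with Sal. Das was thus the lower at 24 h in the numbered libraries and Sal at 72 h in all. For KIF20A the Sal change of -2.78 stood beside a Das change of 0.49, a difference of -3.26 (adjusted p = 2.56e-05). The doses differed, so the comparison is of these 2 treatments as given.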

How the data were processed

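RNA-seq read counts per gene were deposited by the authors as 1 table of raw counts for 32 libraries, with no column of another sample (0). Per the submitters' processing notes, bcl2fastq 2.19, STAR 2.5.2, Cufflinks 2.1.1 and DESeq2 were used with GRCh37, and the counting program, annotation and use of strand are not given in the sources used here, so overlapping and antisense genes could share reads. Samples were grouped by the labels. Of 48804 listed genes, 46537 matched the reference gene tables, and 17227 passed the filterByExpr function (minimum count 10).

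All 32 libraries entered 1 fit with a mean per group (edgeR 4.0.16, TMM scaling, quasi-likelihood test, R 4.3.3). Contrasts were Sal against control at 24 h and at 72 h, their difference, and the difference of that from Das. A gene was called at a Benjamini-Hochberg adjusted p below 0.01 with an absolute log2 fold change above 1.5, as in the study. Intervals are 95%, and levels are CPM on scaled library sizes. Bounds were taken against 3 counts per library. Depth was 28721753 to 42769687 counts per library, so a gene with few counts, such as ESR2, has the wider error. The script was tested on simulated data.

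The named genes were protein-coding, with a symbol and at least 5 CPM in a group: the 6 late genes with the largest positive and the 6 with the largest negative change, up to 4 growing, fading, early and reversed genes per direction of the 24 h response, the 6 lasting genes with the largest smaller response of the times, and of each of 20 lists the 3 most changed called members or, with none called, the 2 with the highest CPM. ESR2, CCND1 and MYC were added as named by the study. List members and genes said to be chosen after their values were seen fall outside it. Results for 2 genes are counted in totals and not reported here. The genes, lists and tests were chosen with earlier results of these data known. Alternatives were a replicate block, a term for unnumbered libraries, the numbered libraries alone, the 16 libraries alone, DESeq2 1.42.0 and other cutoffs. Each control and Sal library was also left out in turn. Das libraries were left out for the comparison with Das, and replicate 3 of 72 h for all counts. Libraries given both drugs were not left out.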

Additional observations from a re-analysis of the deposited data

Results flagged for a closer look

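For genes and gene sets, 138 sets of 4 values, 1 per library of a group, were examined for a lone value by Dixon's ratio, and 29 had one. The cutoff is made for about 1 in 20 by chance in independent sets. These sets share the same 16 libraries, and some genes were named for their 24 h response, so the count is a description. In 28 of the 29 the lone value was of the unnumbered library, 13 times that of Sal at 24 h. The part of the unnumbered series in these values was not tested beyond the refits given.

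The unnumbered Sal library of 24 h lay apart in the CPM of KIF20A (100.5, lowest), SFRP1 (71.14, lowest), ATG9B (1.121), HSPA5 (1536), FTL (592.1), MUC4 (23.51), HTRA3 (2.858), DDIT3 (71.4) and ESR2 (0.2522), all but the first 2 the highest of their group. It did so also in the median log2 difference from control over genes higher at 72 h (1.1913), genes lower at 72 h (-0.8769), ER chaperones (1.0399) and glycolysis and hypoxia genes (1.1178).

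The unnumbered Sal library of 72 h lay apart in SCD (453.7 CPM, lowest), CNIH2 (0.9148 CPM), RRM2 (62.84 CPM), CCNA2 (20.18 CPM), UNC13A (38.4 CPM, lowest) and HERPUD1 (870.0 CPM, lowest), and in the medians over genes lower at 72 h (-1.8556), mitosis genes (-1.9747) and DNA replication genes (-0.9337). Among the controls the unnumbered library was apart at 24 h in HMGCS1 (339.4 CPM, highest), ITGA9 (4.303 CPM, lowest), SFRP1 (139.3 CPM, lowest), LRRC55 (24.22 CPM, highest) and HSPA5 (379.2 CPM, highest), and at 72 h in SCD (326.9 CPM, lowest). The exception to the unnumbered libraries was Sal replicate 3 of 72 h in ITGA9 (0.2126 CPM, highest), a value of few counts.

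The Sal response differed between 24 and 72 h, by the interaction term, in 432 higher and 936 lower genes, and its change differed from that of the Das response in 825.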

How the results depend on the processing

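Counts of genes depended on the cutoffs and on single libraries more than on the tool. By adjusted p alone the change was called for 1414 higher and 2352 lower genes, with 3447 late, 296 growing, 1 fading, 8 early, 2 reversed and 484 lasting, and 2035 genes between Sal and Das. With an absolute log2 fold change above 1 the numbers were 794, 1541, 2148 late, 178 growing, 3 early, 225 lasting and 1311. An adjusted p under 0.05 gave 249 growing, 2 early and 5 reversed genes. DESeq2 gave 173 growing, 1 early and 3 reversed. The 16 libraries fitted alone gave 3 reversed genes and 531 between Sal and Das. The numbered libraries alone gave 657 higher genes, 1 early, 10 reversed, 43 lasting and 1341 between Sal and Das, and a term for the unnumbered libraries gave 220 growing and 5 reversed. Counts not given stayed within 1.5 times.

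With the replicate number as a block, growing genes rose to 209 and reversed to 5, and the other counts stayed within 1.5 times (519 higher, 1033 lower, 990 between Sal and Das). Libraries of the same number 1 to 3 had a median correlation of deviations of 0.154, against 0.151 for different numbers, so the numbers do not pair them. The unnumbered libraries had 0.50.

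Leaving out 1 control or Sal library at a time, or Das replicate 3 of 72 h, moved higher genes from 343 to 692. The latter was without the unnumbered Sal library of 24 h. Lower genes moved from 836 to 1107, late from 1093 to 1751, growing from 40 to 178, early from 0 to 1, reversed from 0 to 2 and lasting from 34 to 139. With 1 Sal or Das library left out, genes between Sal and Das moved from 562 to 1131. Growing genes were 40 without the unnumbered Sal library of 24 h or control replicate 2 of 24 h. They were 48, 43 and 44 without control replicate 0, 1 or 3 of 24 h, and 124 without the unnumbered Sal library of 72 h. They were 178 with Das replicate 3 of 72 h removed, a leave-out chosen after seeing the data, as was that of the lists without the Sal library. Lasting genes were 34 without the latter. No gene was reversed without control replicate 1, 2 or 3 of 24 h. The glycolysis and hypoxia median went from -0.40 to 0.13 without the unnumbered Sal library of 24 h, and was -0.24 with the numbered libraries alone, and the cause was not tested. Of the values for single genes in these leave-outs, 1867 kept their side of the threshold, 17 gained and 36 lost the call, and none of those called changed sign.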

Other observations

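Sequence words in the promoters of other lists were counted as well. The CARE word TGATGNAA, the composite element of ATF4 genes, stood in 21.1% of 19 promoters of the ATF4 list, against 3.67% of all promoters and 1.80% of those of genes tested. CCAAT stood in 83.3% of 18 sterol promoters, against 35.7% of all promoters and 36.2% of those of genes tested. The sterol element word TCACCCCAC stood in 5.56% of the 18, against 0.425% and 0.377%, and in 0 of 7 fatty acid promoters.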
